A study of Mus musculus with 6 samples.

Results

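Open chromatin was examined at 10 genes of the hyaluronan and proteoglycan matrix of the heart's endocardial cushions: the hyaluronan synthase genes Has1, Has2 and Has3, the matrix genes Vcan, Hapln1 and Acan, the receptor gene Cd44, and the protease genes Adamts1, Adamts5 and Adamts9. The genes were chosen by name as a family, and a peak was counted for a gene when it overlapped the annotated gene or 10 kb either side. These are 10 of the 21887 protein-coding genes of the annotation, and their windows held 43 of the 49048 regions found in the series. The cells were an immortalised line of atrioventricular cushion mesenchymal cells from H- 2Kb-tsA58 transgenic mouse embryos, at passage 6. That transgene encodes a heat-sensitive viral T antigen under a major histocompatibility promoter, and it was carried by every sample. Normal-glucose cultures had 5.5 mM D-glucose and high-glucose cultures had 25 mM, each for 48 h, with 3 ATAC-seq libraries per condition and 54000 cells per library. In ATAC-seq a transposase cuts accessible DNA, and sites with many cuts are called as peaks. Whether the line is 1 clone, and whether replicates were separate cultures, is not said in the labels, so the spread between replicates may be technical.

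The early heart is lined by cardiac jelly, a gel of hyaluronan and the large proteoglycan versican, which swells into the cushions that later become valves and septa. Hyaluronan synthases extrude the polymer through the cell membrane, and Has2 is the synthase on which cushion formation depends in mice. Versican and aggrecan, the products of Vcan and Acan, bind hyaluronan, and the link protein encoded by Hapln1 locks them onto it. CD44 is a cell surface receptor for hyaluronan. ADAMTS1, ADAMTS5 and ADAMTS9 are secreted metalloproteases that cut versican as the cushions are remodelled.

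Peak lists were compared only where they held at least 1000 peaks. The normal-glucose lists held 24263 and 40350 peaks in replicates 1 and 3 and the high-glucose lists 22156, 25020 and 22598 in replicates 1, 2 and 3, while normal-glucose replicate 2 held 66, none of them in a window of the 10 genes. The number of reads is unknown, and a longer list reaches weaker sites. A start region is a peak within 1 kb of an annotated gene start, and 37.2% of protein-coding genes had one in all 5 lists. Among cushion mesenchyme markers 5 of 9 had one in all 5 lists (Sox9, Snai2, Msx1, Tbx20 and Fbln2) and the other 4 in some. Among general mesenchymal markers 3 of 9 did (Vim, Cdh2 and Cdh11), and Pdgfra, Pdgfrb, Col1a2 and Thy1 had none in any list. None of 6 endothelial and none of 5 cardiomyocyte markers had one in all 5 lists, against 1 of 4 blood markers (Spi1) and 2 of 5 epicardial markers (Wt1 and Upk3b). Some lists only held one for the general mesenchymal Col1a1 and S100a4 (4 lists each), the endothelial Kdr (4), and the epicardial Tbx18 (4) and Msln (3). The remaining endothelial, cardiomyocyte, blood and epicardial markers had none in any list.

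Values for the 5 libraries are given throughout in the order normal-glucose replicates 1 and 3, then high-glucose replicates 1, 2 and 3. A percentile is the rank of a peak within its own list by the authors' −log10 p, so 90 means stronger than about 90% of that list. It describes a peak's place in 1 list and shows no change between lists of different length.

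The 10 genes fell into different classes at their promoters, and 5 promoters are printed to show this. RefSeq starts (GRCm38.p6, the coordinates of mm10) were listed for 7 of the 10 genes. For Has2, Has3 and Adamts5 the tables gave neither a start nor a strand, so both gene ends were used. Each line below gives the 250 bases before the start, 5′ to 3′ on the gene's own strand, which is minus for Cd44, Adamts9, Adamts1 and Vcan and plus for Acan. Capitals mark bases that a peak covered in at least 3 lists.
Cd44, chr2:102901666-102901915: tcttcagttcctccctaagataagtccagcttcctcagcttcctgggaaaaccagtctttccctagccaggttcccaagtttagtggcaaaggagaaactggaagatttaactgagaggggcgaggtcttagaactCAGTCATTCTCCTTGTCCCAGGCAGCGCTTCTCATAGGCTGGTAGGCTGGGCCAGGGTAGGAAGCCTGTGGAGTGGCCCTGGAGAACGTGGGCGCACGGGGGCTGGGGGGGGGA
Adamts9, chr6:92943535-92943784: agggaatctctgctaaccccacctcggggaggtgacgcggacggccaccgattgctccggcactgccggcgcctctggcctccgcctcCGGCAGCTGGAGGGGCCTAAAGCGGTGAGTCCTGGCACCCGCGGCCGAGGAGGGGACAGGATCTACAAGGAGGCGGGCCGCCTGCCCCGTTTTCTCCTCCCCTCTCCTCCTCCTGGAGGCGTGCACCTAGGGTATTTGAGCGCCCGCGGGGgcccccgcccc
Adamts1, chr16:85803114-85803363: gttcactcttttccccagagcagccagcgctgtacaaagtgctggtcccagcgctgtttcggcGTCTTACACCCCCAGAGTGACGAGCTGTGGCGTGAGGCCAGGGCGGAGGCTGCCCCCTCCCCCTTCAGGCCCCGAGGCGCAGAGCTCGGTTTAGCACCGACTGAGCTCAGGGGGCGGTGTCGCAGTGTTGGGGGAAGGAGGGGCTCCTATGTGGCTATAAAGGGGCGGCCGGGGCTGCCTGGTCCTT
Vcan, chr13:89742513-89742762: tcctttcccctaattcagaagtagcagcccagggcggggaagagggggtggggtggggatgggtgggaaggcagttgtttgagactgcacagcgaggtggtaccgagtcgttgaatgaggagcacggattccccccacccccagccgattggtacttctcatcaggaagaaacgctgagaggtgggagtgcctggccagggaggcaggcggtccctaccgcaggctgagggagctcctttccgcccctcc
Acan, chr7:79052976-79053225: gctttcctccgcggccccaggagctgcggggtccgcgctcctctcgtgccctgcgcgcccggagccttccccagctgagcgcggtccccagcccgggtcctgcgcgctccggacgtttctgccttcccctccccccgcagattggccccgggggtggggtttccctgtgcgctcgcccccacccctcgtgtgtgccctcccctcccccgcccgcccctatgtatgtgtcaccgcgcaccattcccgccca
At Cd44 the 114 bases nearest the start were covered in at least 3 lists, at Adamts9 bases 12 to 162 before it, and at Adamts1 the nearest 187. No list covered any printed base of Vcan or Acan.

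By count of CpG dinucleotides, Acan and Cd44 went against most promoters at or beyond their own count, and Adamts9 and Hapln1 went with them. Counted over the 300 bases from 250 before to 50 after the start, the Acan window held 31 CpG dinucleotides and was 74% G or C. Of the 3469 promoter windows with at least 31 CpGs, 69.4% had a peak within 1 kb of the start in all 5 lists and 13.9% in none, and Acan was among the latter. The Cd44 window held 6 CpGs and was 58% G or C, against a median of 52.7% over all windows. Of the 15735 windows with at most 6, 3.01% had such a peak in all 5 lists, Cd44 among them, and 90.5% had none. Of the 6053 windows with at least 25 CpGs, as at Adamts9, 69.1% had one in all 5 lists, and of the 10310 with at most 3, as at Hapln1, 93.9% had none. The Adamts9 window had 25 CpGs, Adamts1 18, Vcan 12, Has1 5 and Hapln1 3, against a median of 7 over all 32851 windows. Each set runs to the end of the CpG range, so the 10310 windows lie within the 15735, and windows of closely similar count were not compared. These comparisons were chosen after the values had been seen.

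Of 10 short motifs searched on both strands in these 7 windows, the SP1 motif GGGCGG occurred in the most, at Vcan, Acan, Cd44, Adamts1 and Adamts9, and 35.7% of all promoter windows hold it. Adamts1 had it 147, 76 and 25 bases before the start, each under a peak in 3 lists, together with a TATA box (TATAAA) 32 bases before the start, a motif held by 13.6% of windows. In Cd44 the match began 3 bases after the start and lay under a peak in 3 lists. In Acan 3 matches, 44, 40 and 7 bases before the start, lay under a peak in no list. The CCAAT box (CCAAT, in 37.4% of windows) was in Has1, Vcan and Acan, the letters TGGGAA of the RBPJ motif (25.6%) in Vcan and Cd44, TGGAAA of NFAT (21.4%) in Vcan, CAGACA of SMAD (21.0%) in Has1 and AGATAA of GATA (11.2%) in Cd44. None of the 7 windows held TGANTCA of AP-1 (7.81% of windows), ACATTCC of TEAD (3.85%) or CACGTG, the box repeated in carbohydrate response elements (7.15%). A match is a run of letters and no evidence that a factor binds.

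Of the 43 regions of these genes, 12 (27.9%) were held by all 5 lists, close to the 25.1% of all regions, and 21 (48.8%) by a single list, against 39.7%. Normal-glucose replicate 3, the longest list, was the sole holder of 12 of those 21. Regions held by all 5 lists were found at 7 of the 10 genes, the exceptions being Hapln1, Acan and Adamts5, and 50.0% of protein-coding genes have such a region in their window. When peaks were joined only where their summits lay within 100 bp, 9 of 48 regions were held by all 5 lists, against 20.2% of all regions, at 5 of the 10 genes. With every list cut to the length of the shortest, 11 of 31 regions (35.5%) were held by all 5, against 30.1% of all regions. Of the 12 regions 10 lay inside the gene and 2 in the flank of Has1. Only Cd44 and Adamts9, 2 of 10 genes, had a start region in every list, against the 37.2% of all genes given above, and Has1, Hapln1 and Acan had one in no list, as had 46.8% of genes.

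**Figure D1:**
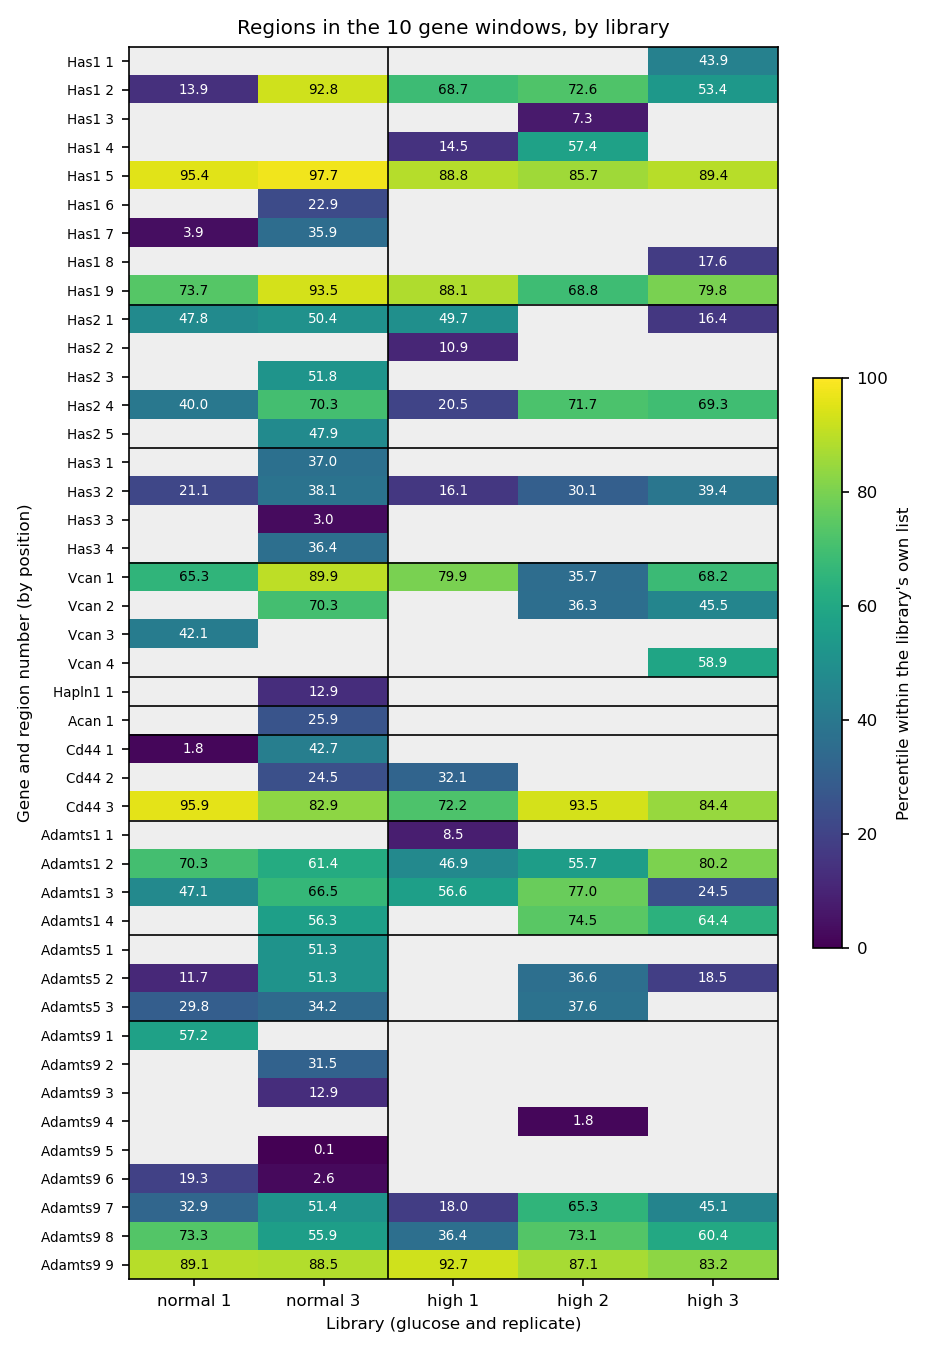
Regions of the 10 genes (rows, numbered by position) in the 5 libraries (columns), with the percentile of each peak within its own list; grey means that the list held no peak. The 12 complete rows are the regions held by all 5 lists, and no row is filled in the 3 high-glucose columns alone.

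Several shared regions sat a few kilobases inside the gene and not over its start. At Vcan, Adamts1 and Adamts9, 3 of the 7 genes with a listed start, a region held by all 5 lists had its summit between 1 and 3.5 kb downstream of the start, which held for 1.73% of the 17492 protein-coding genes with a listed start, a comparison chosen after the positions were seen. With 2.5 kb either side in place of 1 kb, 5 of the 10 genes had a peak near a start in all 5 lists, against 39.3% of genes. The annotation used here gives no exons, so exons, introns and untranslated parts are not told apart.

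**Figure D2:**
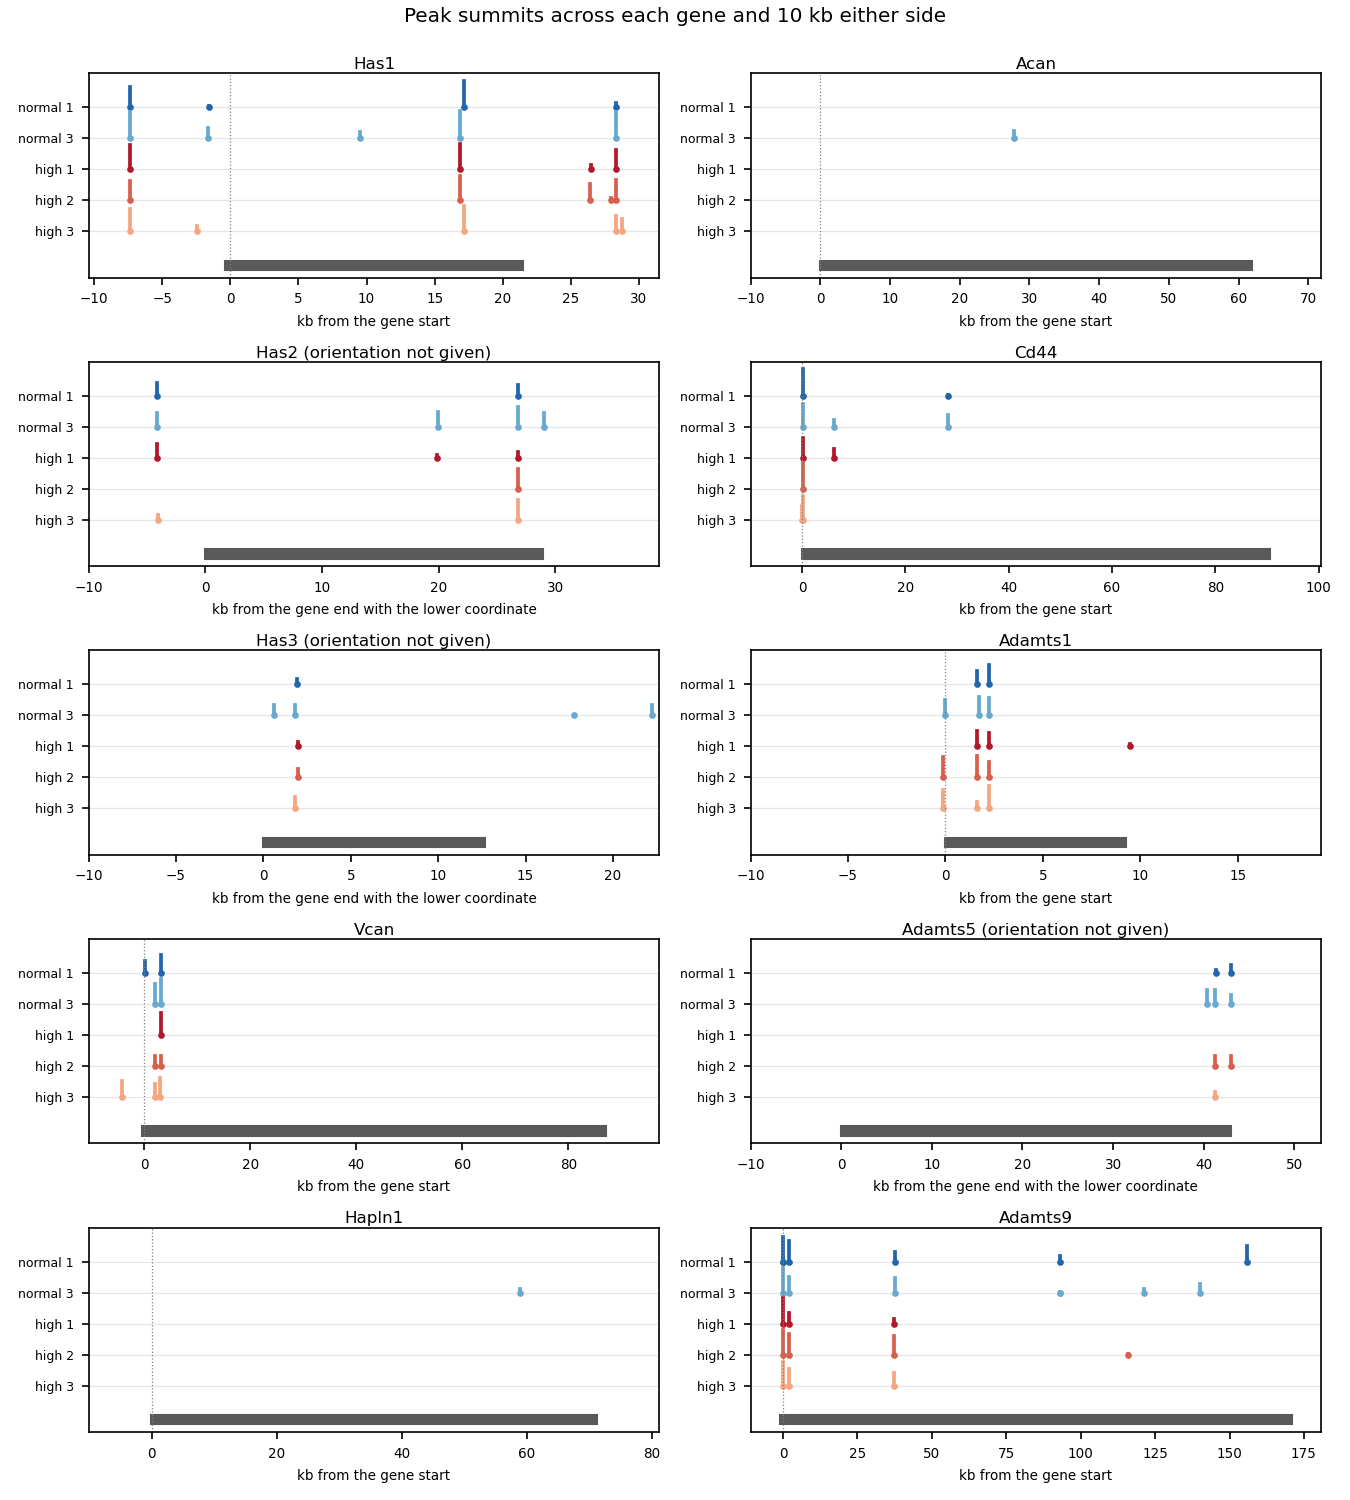
Peak summits in each of the 5 libraries (rows) along the 10 genes, in kb from the start or, where the orientation was not given, from the gene end with the lower coordinate. The height of a bar is the percentile within that list (a full row is 100), a dot marks each summit, and the dark bar is the annotated gene. The summits of Cd44, Adamts1, Adamts9 and Vcan crowd near the start, and Hapln1 and Acan have 1 peak each.

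Among the synthases, Has2 had 1 region held by all 5 lists, 2.16 kb inside the gene end at 56694546. It spans chromosome 15, 56692256 to 56692534, also overlaps the antisense gene Has2os, and stood at the 40.0, 70.3, 20.5, 71.7 and 69.3 percentile. The authors' fold enrichment there was 6.12, 8.48, 5.23, 8.91 and 8.38, so the region was in the upper part of 3 lists and in the lower part of those of replicate 1 of both conditions. Another Has2 region, 4.15 kb outside the opposite gene end, was in 4 lists, at the 47.8, 50.4, 49.7 and 16.4 percentile, and missing in high-glucose replicate 2. Within 1 kb of a gene end Has2 had a peak in normal-glucose replicate 3 alone, at the 47.9 percentile. That pattern, the longest list only, is shared by 522 genes (2.38%), Has3 among them.

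The shared region of Has3 ranked low. It lies at chromosome 8, 106871993 to 106872296, inside the gene and 1.95 kb from the nearer end. It stood at the 21.1, 38.1, 16.1, 30.1 and 39.4 percentile, the lower part of every list, and its summits were spread over 197 bp. With lists of equal length, or with summits joined only within 100 bp, it was no longer held by all 5. The 3 other Has3 regions were in normal-glucose replicate 3 alone, and 2 of them lay in the neighbouring genes Chtf8 and Derpc.

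Has1 had the shared region with the highest median percentile, although it ranked above those of Adamts9 and of Cd44 in only 3 of 5 lists each, and none of its shared regions belongs to Has1 alone. The region at chromosome 17, 17837883 to 17838506, is 16.88 kb downstream of the Has1 start and also lies in the gene Spaca6. It stood at the 95.4, 97.7, 88.8, 85.7 and 89.4 percentile, the upper part of every list. The 2 flank regions overlap Spaca6 (13.9, 92.8, 68.7, 72.6 and 53.4 percentile) and the non-coding gene Gm36907 (73.7, 93.5, 88.1, 68.8 and 79.8 percentile). The nearest region upstream of the Has1 start, 1.60 kb away, was in the normal-glucose lists only, at the 3.9 and 35.9 percentile.

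At Vcan the start was nearly bare and the open site lay inside the gene. The region at chromosome 13, 89739351 to 89739664, 3.07 kb downstream of the start, was held by all 5 lists at the 65.3, 89.9, 79.9, 35.7 and 68.2 percentile, with a fold enrichment of 7.76, 11.99, 9.60, 5.85 and 8.09. It was thus in the upper part of the list of normal-glucose replicate 3 and in the lower part of that of high-glucose replicate 2. The summit of high-glucose replicate 3 lay apart from the others, and with summits joined only within 100 bp Vcan had 0 regions in all 5 lists. A neighbouring region 2.02 kb downstream of the start was in normal-glucose replicate 3 and high-glucose replicates 2 and 3, at the 70.3, 36.3 and 45.5 percentile. Within 1 kb of the start only normal-glucose replicate 1 had a peak, at the 42.1 percentile. It ended just downstream of the start without reaching it, and 66 genes (0.302%) have a start region in that list alone. All 4 Vcan regions also lie in the non-coding gene Gm4117, so the sites cannot be given to Vcan alone.

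Hapln1 and Acan were the emptiest windows. Hapln1 had 1 peak, 58.90 kb downstream of its start, and Acan 1, 27.77 kb downstream, each in normal-glucose replicate 3 alone and at the 12.9 and 25.9 percentile of that list. Neither peak was among the strongest 22149 of that list, the length of the shortest list. The other 4 lists held no peak in the 91.3 kb of the Hapln1 window or the 81.9 kb of the Acan window. Having no shared region, they stood with 50% of protein-coding genes.

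The receptor gene Cd44 was open at its start in every library. Its start region, chromosome 2, 102901437 to 102901796, stood at the 95.9, 82.9, 72.2, 93.5 and 84.4 percentile, with a fold enrichment of 15.78, 11.57, 8.50, 16.86 and 11.31. It was in the upper part of every list. The summits of the strongest peak in each of the 5 libraries lay within 32 bp of each other. Over all peaks of the region the median summit was 78 bp downstream of the start. In both normal-glucose lists and in high-glucose replicate 2 the peak ran across the start. In high-glucose replicate 1 it ended downstream of the start, and high-glucose replicate 3 had 2 peaks, the stronger downstream of the start and the other, at the 50.2 percentile, upstream. The 2 other Cd44 regions were weak and incomplete. The region 28.20 kb downstream of the start was in the normal-glucose lists only, at the 1.8 and 42.7 percentile, and the region 6.24 kb downstream was in normal-glucose replicate 3 and high-glucose replicate 1.

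Among the proteases, Adamts9 shared that state. The region at chromosome 6, 92943352 to 92943717, stood at the 89.1, 88.5, 92.7, 87.1 and 83.2 percentile and had a fold enrichment of 11.56, 12.47, 13.56, 11.97 and 10.79. It was in the upper part of every list. A region 1.97 kb downstream of the start was also held by all 5 lists (73.3, 55.9, 36.4, 73.1 and 60.4 percentile), as was one 37.44 kb downstream (32.9, 51.4, 18.0, 65.3 and 45.1 percentile). The start region and the one 1.97 kb downstream also overlap the gene 9530026P05Rik, so they cannot be given to Adamts9 alone. The remaining 6 regions of Adamts9, a gene of 172 kb, lay 92.96 kb or more downstream. Of these 5 were in a single list and 1 was in the normal-glucose lists only, at the 19.3 and 2.6 percentile.

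Adamts1 was open inside the gene in every library and at its start in 3. Its 2 shared regions, at chromosome 16, 85800794 to 85800965 and 85801283 to 85801574, lay 2.23 and 1.62 kb downstream of the start. The farther one stood at the 70.3, 61.4, 46.9, 55.7 and 80.2 percentile and the nearer one at the 47.1, 66.5, 56.6, 77.0 and 24.5. The farther one ranked above the nearer one in replicate 1 of normal glucose and replicate 3 of high glucose, and below it in the other 3 lists. The start region, 85803082 to 85803324, was in normal-glucose replicate 3 and high-glucose replicates 2 and 3, at the 56.3, 74.5 and 64.4 percentile, and missing in a library of each condition. With 2 shared regions in a window of 29.3 kb, or 6.83 per 100 kb, Adamts1 was denser than 95.2% of protein-coding genes, and Has1, with 7.16 per 100 kb, denser than 95.7%. Of the 3 shared regions of Has1 2 lie in its flanks, and with 2 kb either side it had 1. Adamts9 had 1.56, Has2 2.04, Has3 3.06, Vcan 0.928 and Cd44 0.905 per 100 kb.

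Adamts5, the neighbour of Adamts1 on chromosome 16, had no region in all 5 lists, because high-glucose replicate 1 held no peak in its window. A region 1.73 kb inside the gene end at 85901125 was in the other 4 lists, at the 11.7, 51.3, 36.6 and 18.5 percentile. The region over that end, 85901062 to 85901289, was in both normal-glucose lists and high-glucose replicate 2, at the 29.8, 34.2 and 37.6 percentile. It also overlaps the gene Gm46558. That start pattern is shared by 160 genes (0.731%), and the Adamts1 pattern by 193 (0.882%).

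The strongest shared region of a gene was taken as the one with the highest percentile in its weakest library. It need not be the strongest in each list, as at Adamts1. Ranked within each list by that region, 3 of the 7 genes stood above 3 others, with Vcan between. The regions of Has1, Adamts9 and Cd44, with medians at the 89.4, 88.5 and 84.4 percentile, were not ordered alike in all lists. Each stood above the regions of Adamts1, Has2 and Has3 in 5 of 5 lists. Vcan, with a median at 68.2, lay above Cd44 in 2 lists and above Adamts9 in 1. Adamts1, Vcan and Has2 were not ordered alike in all lists, and Has3 was below each of the other 6 in all 5.

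**Figure D3:**
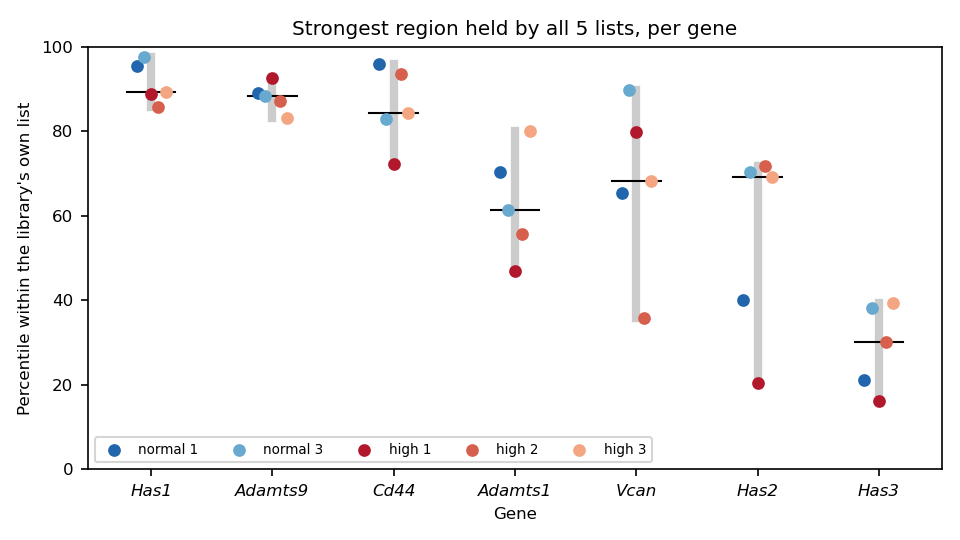
Percentile within its own list of the strongest region held by all 5 lists, for the 7 genes that have one, by library. Strongest means the highest percentile in the region's weakest library. The grey bar spans the lowest to the highest library and the line marks the median. Has1, Adamts9 and Cd44 lie at or above 72.2 in every library. The lists differ in length, so the points of a gene show no change between libraries.

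No region of these genes was present in all 3 high-glucose lists and in neither normal-glucose list, against 0.167% of all regions. In the reverse direction 3 of 43 regions (6.98%) were in both normal-glucose lists only, against 3.73% of all regions. They are the weak sites named above at Has1 (1.60 kb upstream of the start), Cd44 (28.20 kb downstream) and Adamts9 (92.96 kb downstream). None of the 3 had that pattern once every list was cut to its strongest 22149 peaks, where 1.62% of all regions did. Regions only in high glucose also numbered 0 at that length, against 0.956% of all regions. Regions only in normal glucose numbered 15 of 41 without normal-glucose replicate 1, against 28.6% of all regions. The longest list then stands for its condition alone. Without normal-glucose replicate 3 these regions numbered 5 of 32, against 10.6% of all regions. Regions only in high glucose numbered 0 in both cases, against 0.327% and 3.1% of all regions.

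**Figure D4:**
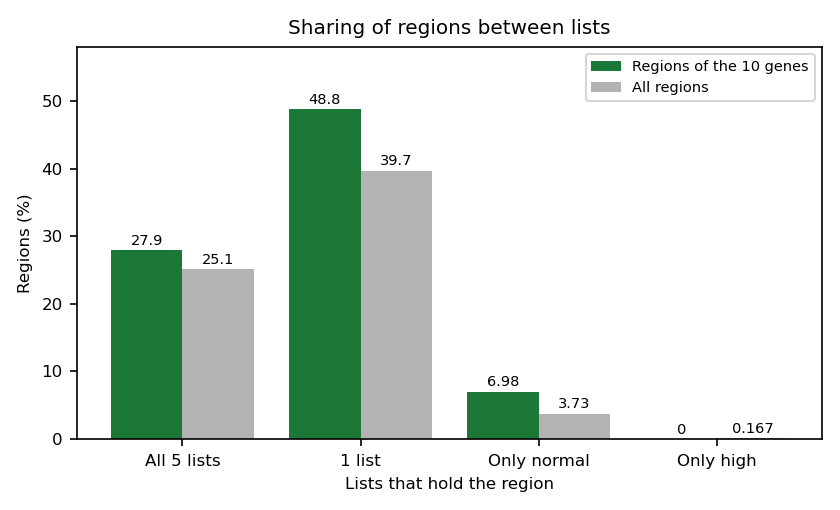
Share of the 43 regions of the 10 genes (green) and of all 49048 regions (grey) that were held by all 5 lists, by 1 list, by both normal-glucose lists only or by the 3 high-glucose lists only. The shares of the genes and of all regions are 27.9% and 25.1% for all 5 lists, and 6.98% and 3.73% for normal glucose only.

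As a share of the list, peaks in the 10 windows made up 8.66, 8.18, 7.68, 7.60 and 8.85 of every 10000 peaks, a mean of 8.42 ± 0.338 (SD, n = 2) in normal and 8.04 ± 0.704 (SD, n = 3) in high glucose. The difference of -0.377 was smaller than the spread between high-glucose replicates. Gene by gene, the conditions did not overlap for 3 of the 10. Has1, with 4, 5, 4, 5 and 5 peaks, and Adamts1, with 2, 3, 3, 3 and 3, took a larger share of each high-glucose list, as did 8.23% of genes with any peak. Adamts9, with 6, 7, 3, 4 and 3 peaks, took a larger share of each normal-glucose list, as did 6.75% of such genes. The mean shares per 10000 peaks in high against normal glucose were 2.01 ± 0.204 and 1.44 ± 0.29 for Has1, 1.29 ± 0.083 and 0.784 ± 0.0572 for Adamts1, and 1.43 ± 0.149 and 2.1 ± 0.522 for Adamts9 (SD, n = 3 and 2). Each had p = 0.2, the smallest that a two-sided exact permutation test of 2 against 3 libraries can give, so none could pass 0.05. In raw counts these lists differed by at most 1 peak for Has1 and Adamts1. With lists of equal length Has1 had 3, 3, 4, 4 and 5 peaks, again without overlap, as did 2.25% of genes with any peak in that direction. At that length Adamts1 had 2, 3, 3, 3 and 3 and Adamts9 6, 3, 3, 3 and 3, so the conditions overlapped for both, and the difference in share for Adamts1 was 0.226 per 10000 peaks in place of 0.51.

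The other genes of this pathway were counted from 7 lists with 76 genes in all. Of the 76, 30 (39.5%) had a start region in all 5 lists and 27 (35.5%) in none, beside 37.2% and 46.8% of all genes. Of 19 genes of hyaluronan turnover and binding 8 had a start region in all 5 lists, ranked highest by Ugdh, which makes the UDP-glucuronic acid that synthases use, Cemip2, a hyaluronidase of the cell surface, and Hmmr, another hyaluronan receptor, whose peaks ranked no lower than 98.9, 98.2 and 85.5 in their weakest library. Of 16 genes of chondroitin sulfate synthesis 10 did, led by B3galt6, Chpf and Chst12 (at or above 91.0, 90.4 and 79.9). Of 11 cell surface and basement membrane proteoglycans 6 did, led by the syndecan gene Sdc2, the perlecan gene Hspg2 and the agrin gene Agrn (97.5, 96.7 and 82.3).

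None of the 5 other link proteins and lecticans, Hapln2, Hapln3, Hapln4, Ncan and Bcan, had a start region in any list. That is the state of Hapln1 and Acan too, and of 46.8% of all genes. Vcan had one in normal-glucose replicate 1 alone, and Bcan had a window region held by all 5 lists. Of 8 small proteoglycans none had one in all 5 lists and 5 had none in any. Of 13 other ADAMTS genes 3 had one in all 5 lists, Adamts7, Adamts12 and Adamts2 (at or above 78.4, 40.1 and 14.7), and 5 had none. All 4 genes of inhibitors and partners had one in some list. Of them Fbln2, Fbln1, a cofactor of ADAMTS1, and Timp3, an inhibitor of ADAMTS proteases, had one in all 5 (at or above 91.6, 44.7 and 43.9).

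The window limit of 10 kb and the list minimum left few close cases. The farthest flank regions inside the limit lay 9.52 kb from Has3, in 1 list, and 7.21 kb from Has1, in 1 list. The nearest region outside it was 10.22 kb from Has3, in 4 lists, and for the other genes the nearest lay 31.13 kb or more away. The next list above the minimum of 1000 peaks had 22156 and the list below it 66.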

How the data were processed

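ATAC-seq peak lists of 6 libraries of an immortalised mouse cushion mesenchymal line, 3 per glucose condition, were used. Per the submitters' processing notes, which give no roles or settings, the build was mm10 and the named tools were MACS2 2.1.0 (a peak caller), Bowtie 1.0.0 (an aligner), Picard 1.90, SAMtools 0.1.19, cutadapt 1.0, FastQC, edgeR and DiffBind 1.12.3. For the transposase shift, duplicate reads and filters, settings are not given in the sources used here. Each library has its own list, in which the authors deposited per peak a score, a ratio of fold enrichment, and a p-value and a q-value as −log10. No deposited −log10 q fell below 1.30. There are no read counts, so only presence and rank within a list were compared.

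Overlapping peaks (1 bp or more) of the 5 lists with at least 1000 peaks were joined into regions, on the autosomes, X and Y. Regions overlapping a gene or 10 kb either side were assigned to it. Genes and starts came from RefSeq GRCm38.p6, which matched 10 of 10 genes by symbol and gave starts for 7. A gene without a listed start was represented by both ends. Conditions were compared per gene by exact permutation tests of the share of the list, two-sided. All 10 genes were named, with the strongest shared region and every region of only 1 condition, and from each companion list the 3 genes ranked highest in their weakest library. The family, the companion lists and the tests were chosen with earlier results of these data known. Alternatives were lists of equal length, a stricter −log10 q (5 or more), all 6 libraries, other merging and windows, each library left out, and same-numbered libraries as pairs. On simulated lists with sites set far apart, the code returned the region calls built into them. That checks the code and not the calls where real peaks lie close together. The software was Python 3.11.15 with pandas 2.3.3, numpy 2.4.6, matplotlib 3.10.9 and SciPy 1.17.1.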

Additional observations from a re-analysis of the deposited data

How the results depend on the processing

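The 12 regions in all libraries became 6 of 30 at a −log10 q of at least 5, against 25.2% of all regions. Has2 and Has3 then had none, and Adamts1 and Adamts9 had 1 each. The 12 became 0 with all 6 libraries, against 0.106% of all regions, since normal-glucose replicate 2 had no peak at these genes. With all 6 libraries the regions only in normal glucose were also 0, as they were over all 49048 regions. The genes with a start region in all lists and those with a shared window region were 0 too. The shares of all genes were not counted at that setting. The 3 regions only in normal glucose became 0 at that q and 0 with lists of equal length, against 4.13% and 1.62% of all regions. They ranged from 3 to 15 when each library was left out, against 5.29% to 28.6% of all regions. Regions only in high glucose ranged from 0 to 1, the 1 arising without high-glucose replicate 3, against 0.592% of all regions there. The 2 genes with a start region in all lists became 5 with 2.5 kb windows, against 37.2% and 39.3% of all genes. The share difference, -0.377 per 10000 peaks, turned to 0.827 at that q, 0.35 with 50 kb either side and 2.43 with all 6 libraries, and was -1.01 with 2 kb either side. When each library was left out it ranged from -0.783 to -0.138. The causes of these shifts were not tested, apart from the empty list.

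With summits joined only within 100 bp, there were 9 regions and 5 genes in place of 12 and 7, and Vcan and Has3 had none. For the 7 genes with a shared region, 72 of 91 counts under the alternatives stayed within 1.5 times the reported count, the pairs below giving the same regions as leaving out high-glucose replicate 2. A shared region mostly stays shared when a library is left out, and the empty list sets every count to 0. The 72 of 91 are therefore no measure of robustness. Nothing in the labels says that equal replicate numbers pair libraries. Across regions, deviations of presence from the condition mean had a correlation of -0.01 for number 1 and 0.01 for number 3. With only 2 normal-glucose libraries their deviations are equal and opposite. These values are therefore not separate checks and cannot decide whether the libraries are paired. With numbers 1 and 3 as pairs (replicate block), 13 of 41 regions were in all 4 libraries, 4 only in normal and 0 only in high glucose. The shares of all regions were 27.8%, 6.45% and 0.503%. With these pairs 2 genes had a start region and 7 a window region in all 4 libraries, and the share difference was -0.154. The shares of all genes were not counted for these 4 libraries. With 5 lists they were 37.2% and 50.0%. Read depth is unknown and limits every absence: a missing peak may be a site below the threshold of a shorter list.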

Other observations

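With 50 kb either side the 10 genes had 57 regions, of which 17 were in all 5 lists, against 25.1% of all regions. Cd44 then had 3 such regions and Acan 1, whose window of 10 kb had none. The nearest region beyond the Acan window lay 33.95 kb past its end, beyond the neighbouring link protein gene Hapln3, and was in all 5 lists.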
